A study of Mus musculus with 34 samples.

Results

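The 10 genes described here take part in antigen presentation by MHC class II, and they were followed in liver macrophages and hepatocytes of mice. They were chosen by name, and each name was matched exactly against the gene symbols of the deposited tables. All 10 were among the 26233 genes of the macrophage table, and 9 were among the 24951 genes of the hepatocyte table, where Flt3 was not analysed. After a filter on low counts 8 of the 10 could be tested in macrophages and 5 in hepatocytes. Cd209a and Flt3 fell below the filter in macrophages, and H2-DMb1, Ciita, Cd86 and Cd209a fell below it in hepatocytes.

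The study asked how the loss of YAP and TAZ from biliary epithelial cells bears on other liver cells, with and without toxic injury. Knockout mice carried floxed Yap and Taz alleles with an inducible Cre recombinase under the osteopontin promoter (Opn-iCreERT2), a promoter active in biliary cells. Control mice were siblings that carried the same floxed alleles and lacked Cre. All mice had the mixed background B6;129P, and all received tamoxifen, 1.6 mg/kg on each of 5 days at 7 to 8 weeks of age, with a washout of 3 weeks. Carbon tetrachloride (CCl4), a liver toxicant, was injected at 1 ml/kg into some mice of both genotypes, 48 h before the cells were taken. Macrophages, sorted as F4/80 and CD45 positive cells that were negative for propidium iodide and for the UV channel, came from 4 knockout mice after CCl4, 4 control mice after CCl4, 4 knockout mice without CCl4 and 4 control mice without CCl4. Hepatocytes, sorted from a Percoll gradient, came from 4 knockout and 3 control mice after CCl4 and from 5 knockout and 6 control mice without it. Each library was 1 mouse, and 15 mice gave both cell types. The deletion was directed at cells that were not sorted, so neither sorted cell type was its target.

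MHC class II molecules show peptides from engulfed material to CD4+ T cells. Their alpha and beta chains are assembled with the invariant chain Cd74, and the H2-DM heterodimer then exchanges the leftover piece of Cd74 for antigenic peptide. The coactivator CIITA (gene Ciita) does not bind DNA itself but docks on factors bound to the X and Y boxes of class II promoters, and it is known as the switch of the whole group. Dendritic cells, B cells and macrophages are the usual class II positive cells, and in the liver resident Kupffer cells and recruited monocyte-derived cells both carry class II.

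Of the 10 genes, 5, all protein coding, lie close together on chromosome 17. These are, on the plus strand unless stated, H2-DMa (GRCm38, chr17:34119541-34139101), H2-DMb1 (chr17:34153072-34160230), H2-Ab1 (chr17:34257689-34269419), H2-Aa (chr17:34282744-34287823, minus strand) and H2-Eb1 (chr17:34305867-34316674). The other 5 lie elsewhere. The promoter table held 6 of the 10 and not H2-Ab1, Cd74, Ciita and Cd86. The 3 promoter windows below are shown because they carry letters of the class II X or Y boxes. Each is the 150 bases before the RefSeq start site on GRCm38.p6, read 5′ to 3′ on the gene's strand. The Y box letters and the X box core with the GATTGG after it are in capitals, and CCAAT elsewhere is left in lower case. The RefSeq start of H2-DMb1 lies inside the gene interval given above, and its window overlaps that interval.
H2-Aa, chr17:34287824-34287973, strand -: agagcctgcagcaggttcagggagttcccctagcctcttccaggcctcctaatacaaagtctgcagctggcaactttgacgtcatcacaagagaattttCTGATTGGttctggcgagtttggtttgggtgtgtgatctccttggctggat
H2-Eb1, chr17:34305717-34305866, strand +: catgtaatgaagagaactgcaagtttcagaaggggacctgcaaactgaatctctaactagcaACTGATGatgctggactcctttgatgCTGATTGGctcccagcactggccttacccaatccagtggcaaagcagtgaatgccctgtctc
H2-DMb1, chr17:34153041-34153190, strand +: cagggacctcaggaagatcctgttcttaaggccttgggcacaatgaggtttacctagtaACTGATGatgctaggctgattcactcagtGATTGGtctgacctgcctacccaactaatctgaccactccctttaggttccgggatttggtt
The letters searched, on both strands of 300 bases around the start, were CTGATTGG for the Y box, ACNGATG for the X box core, the X box core with GATTGG within 40 bases after it on the same strand, and CCAAT. The Y box letters hold GATTGG and, on the other strand, CCAAT. An X box core with GATTGG after it was found in H2-Eb1, from base -88 to -55, and in H2-DMb1, from base -91 to -57, counted back from the start, and in 0.122% of all 32851 promoters. The Y box letters stood in H2-Aa at -51 to -44 and in H2-Eb1 at -62 to -55, and in 4.1% of all promoters. H2-Aa also held an X box core on the opposite strand at -232 to -226, outside the bases shown, a match that 9.85% of promoters have. CCAAT, found in 37.4% of promoters, stood in H2-Aa, H2-Eb1 and H2-DMb1, and at -198 to -194 of 1 of the 2 listed starts of H2-DMa. At neither listed start of H2-DMa did the X or Y box letters occur. Both of its searched windows (chr17:34122582-34122881 and chr17:34125268-34125567) lie inside the gene interval given above. The bases before that interval were therefore not searched for H2-DMa. In the windows of Cd209a and Flt3 none of the letters searched occurred. Such matches describe letters and not bound factors.

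Library totals were 596380 to 5128587 counts in macrophages, where 3 counts stood for 0.585 to 5.03 CPM (counts scaled to library size), and 931496 to 7535053 in hepatocytes, where 3 counts stood for 0.398 to 3.22 CPM. Levels below are CPM scaled by TMM factors unless stated otherwise. Libraries were of 3′ tags, so a level counts tags and is not divided by gene length, and levels of different genes are not compared. The numbers of the sequencing files formed 2 series, and every knockout library was in the second. The first held, for macrophages, mouse 11 of the controls after CCl4 and mouse 8 of those without it. For hepatocytes it held mice 12 and 15 after CCl4 and mice 2, 7 and 8 without it. For macrophages of mouse 11 and hepatocytes of mouse 15, 1 label named a knockout while the genotype and group labels named a control, and both were kept as controls. Kupffer cell markers summed to 4698 CPM or more in each macrophage library, and hepatocyte markers to 65480 CPM or more in each hepatocyte library. Among the knockout macrophages after CCl4, mice 13 and 14 stood apart from mice 17 and 18. Hepatocyte markers summed to 35350 and 28850 CPM in mice 13 and 14 and to 3194 and 2939 CPM in mice 17 and 18. Kupffer cell markers summed to 4919 and 4698 CPM in mice 13 and 14 and to 16440 and 19620 CPM in mice 17 and 18. In bulk libraries fewer class II positive cells and less class II RNA per cell cannot be told apart.

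In control macrophages the class II genes were lower after CCl4 than without it, but none of these differences passed the test across all genes. H2-Aa, the alpha chain of I-A, had 413, 428, 944.5 and 703 CPM in knockout mice 13, 14, 17 and 18 after CCl4, and 553, 862, 772.5 and 985 CPM in control mice 11, 12, 15 and 16 after CCl4. Without CCl4 it had 198, 513, 2091 and 2384 CPM in knockout mice 4, 5, 20 and 21, and 1661, 2752, 2240 and 2137 CPM in control mice 6, 7, 8 and 9. Every control library after CCl4 lay below every control library without it, while the knockout libraries without CCl4 split into 2 low and 2 high. The group means were 622 ± 253 CPM in knockout and 793 ± 182 CPM in control mice after CCl4, and 1297 ± 1101 CPM in knockout and 2197 ± 447 CPM in control mice without it (SD, n = 4 each). In controls the log2 fold change of CCl4 over no CCl4 was -1.47 (SE 0.551, edgeR quasi-likelihood adjusted p = 0.0895), a 2.77-fold lower level.

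**Figure D1:**
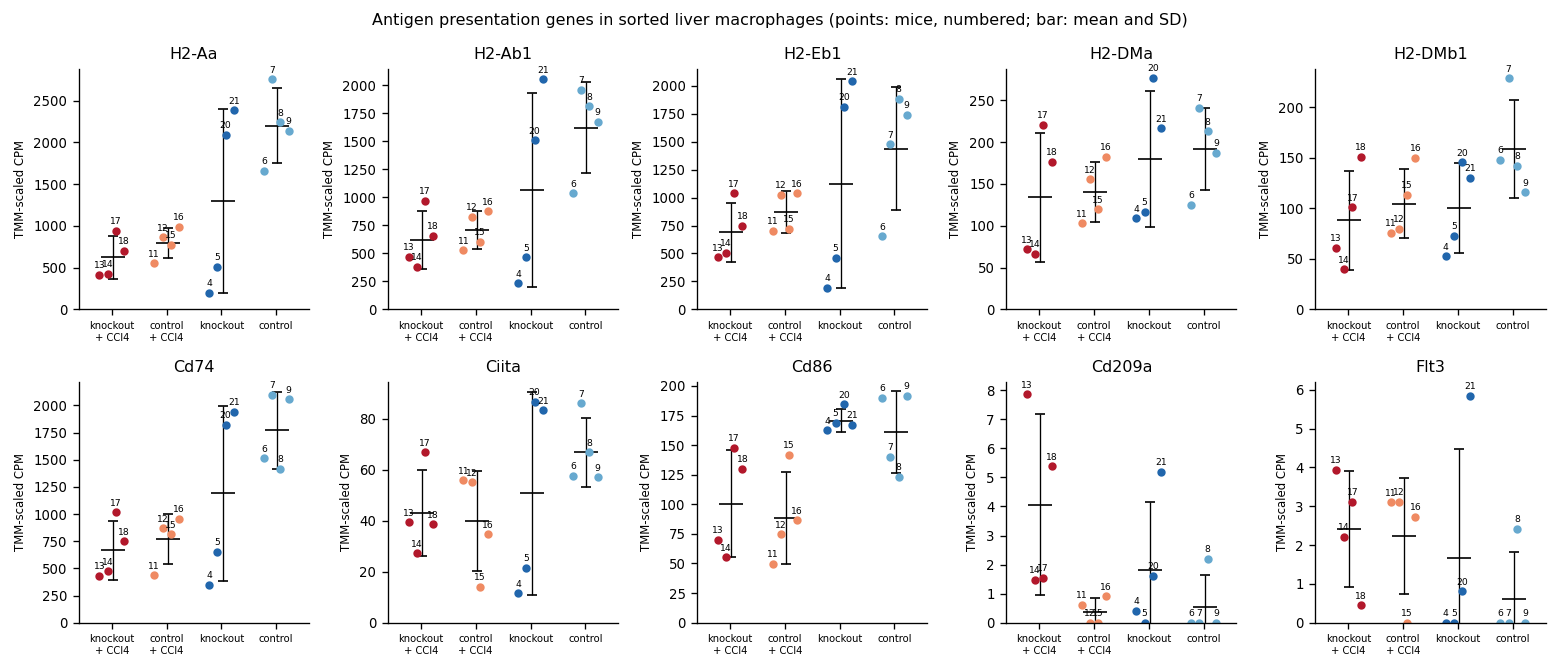
Level of each of the 10 genes in the 16 macrophage libraries, in TMM-scaled CPM on a linear axis from 0. Points are mice with their numbers, and bars are the mean and SD of 4 mice. The class II genes, Cd74 and Ciita are low in knockout mice 4 and 5 and high in knockout mice 20 and 21, a split that Cd86 does not have, and Cd209a and Flt3 stay below 8 CPM.

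The beta chain of I-A, H2-Ab1, was separated in the same way. It had 470, 379, 971 and 659.5 CPM in knockout mice 13, 14, 17 and 18, and 528, 827, 601 and 877 CPM in control mice 11, 12, 15 and 16, all after CCl4. Without CCl4 it had 232, 465.9, 1509 and 2056 CPM in knockout mice 4, 5, 20 and 21, and 1037, 1961, 1814 and 1674 CPM in control mice 6, 7, 8 and 9. Its control libraries did not overlap between CCl4 and no CCl4 either, with a log2 fold change of -1.20 (SE 0.503, edgeR adjusted p = 0.126). H2-Eb1, the beta chain of I-E, was less separated. It had 465, 505, 1038 and 747 CPM in knockout and 701, 1026, 722 and 1036 CPM in control mice after CCl4, in the same order of mice, against 196, 460, 1808 and 2037 CPM in knockout and 653, 1475, 1879 and 1740 CPM in control mice without it. Control mouse 6, at 653 CPM, lay below all 4 control libraries after CCl4, and the log2 fold change in controls was -0.72 (SE 0.549, edgeR adjusted p = 0.414). The reads of H2-Eb1 can include those of an antisense gene, Gm20513, that overlaps it, since the strand setting of the counting is not given in the sources used here.

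The invariant chain Cd74 (GRCm38, chr18:60803848-60812652, plus strand), which guides class II chains to the endosome, had 433, 474, 1016 and 749 CPM in knockout mice 13, 14, 17 and 18, and 434, 869, 812 and 959 CPM in control mice 11, 12, 15 and 16 after CCl4. Without CCl4 it had 350.4, 649, 1822 and 1939 CPM in knockout mice 4, 5, 20 and 21, and 1513, 2099, 1417 and 2055 CPM in control mice 6, 7, 8 and 9. The 2 control groups did not overlap, and the log2 fold change of CCl4 over no CCl4 in controls was -1.21 (SE 0.437, edgeR adjusted p = 0.0774). H2-DMa and H2-DMb1, the chains of the peptide exchanger H2-DM, differed less. H2-DMa had 71.8, 66.9, 221 and 176 CPM in knockout and 103, 156, 119.5 and 182 CPM in control mice after CCl4, in the order above, and 109, 117, 277 and 216 CPM in knockout and 125, 241, 213 and 187 CPM in control mice without it. H2-DMb1 had 60.9, 39.7, 101 and 151 CPM in knockout and 75.9, 79.9, 113 and 150.2 CPM in control mice after CCl4, and 52.6, 72.7, 146 and 130.0 CPM in knockout and 148, 229, 142 and 116 CPM in control mice without it. Their ranges overlapped in each comparison, with log2 fold changes in controls of -0.46 for H2-DMa and -0.60 for H2-DMb1 (SE 0.374 and 0.382, edgeR adjusted p = 0.448 and 0.316). H2-DMb1 has a near copy, H2-DMb2, next to it, so its counts are uncertain to the extent that reads were shared, and H2-DMa overlaps Brd2 and 3 other annotated genes.

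Ciita (GRCm38, chr16:10480059-10528418, plus strand), the class II coactivator, had 39.3, 27.2, 66.8 and 38.6 CPM in knockout mice 13, 14, 17 and 18, and 55.8, 55.0, 14.2 and 34.6 CPM in control mice 11, 12, 15 and 16 after CCl4. Without CCl4 it had 11.5, 21.5, 86.6 and 83.2 CPM in knockout mice 4, 5, 20 and 21, and 57.7, 86.0, 66.8 and 57.0 CPM in control mice 6, 7, 8 and 9. Its split among the knockout mice was the same as that of the class II chains. The control groups met without overlapping, at 55.8 CPM after CCl4 in mouse 11 and 57.0 CPM without it in mouse 9, and the log2 fold change in controls was -0.75 (SE 0.520, edgeR adjusted p = 0.366). Cd86 (chr16:36603869-36666081, minus strand), a costimulatory ligand of CD28 on T cells, had 69.8, 55.1, 148 and 130.0 CPM in knockout and 49.6, 74.7, 142 and 86.5 CPM in control mice after CCl4. In mice without CCl4 it had 162.5, 169, 184 and 167 CPM in knockout and 190, 140.2, 123 and 192 CPM in control mice. After CCl4 each knockout library lay below each knockout library without it, and in controls mouse 15 overlapped the range without CCl4. The log2 fold change of Cd86 with CCl4 was -0.87 in controls (SE 0.312, edgeR adjusted p = 0.0738) and -0.77 in knockout mice (SE 0.313, edgeR adjusted p = 0.331).

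Cd209a (GRCm38, chr8:3743397-3748984, minus strand), a lectin, and Flt3 (chr5:147330741-147400489, minus strand), a growth factor receptor, are used as dendritic cell markers and were near the limit of detection. Cd209a had 8, 2, 1 and 12 counts in knockout mice 13, 14, 17 and 18 and 2, 0, 0 and 1 counts in control mice 11, 12, 15 and 16 after CCl4. Without CCl4 it had 1, 0, 2 and 8 counts in knockout mice 4, 5, 20 and 21, and 10 counts in control mouse 8 with 0 in control mice 6, 7 and 9. Flt3 had 4, 3, 2 and 1 counts in the same knockout mice and 10, 3, 0 and 3 counts in the same control mice after CCl4. Without it Flt3 had 0, 0, 1 and 9 counts in knockout mice 4, 5, 20 and 21, and 11 counts in control mouse 8 with 0 in the other 3 controls. At most 12 counts of either gene were seen in a library, so neither was tested, and reads of Cd209a may be shared with other genes of the Cd209 family.

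Counted over the comparison of CCl4 with no CCl4 in control macrophages, 0 of the 8 tested genes passed edgeR's quasi-likelihood test at an adjusted p under 0.05, where 13.2% of all 10815 genes did, and 0 did by limma voom. All 8 log2 fold changes were negative, 4 had an unadjusted p under 0.05 (28.7% of all genes had one), and their median was -0.81 beside -0.03 for all genes. For H2-Aa, H2-Ab1, Cd74 and Ciita each library after CCl4 lay below each library without it, 4 of 8, against a background of 9.61% of all genes. The calls depended on the fit. DESeq2 called H2-Aa (-1.46, adjusted p = 0.0366) and Cd74 (-1.20, adjusted p = 0.0424), and a fit of the 2 control groups alone called H2-Aa, H2-Ab1 and Cd74 (edgeR adjusted p = 0.00235, 0.0122 and 0.0133). A term for the file series gave 1 call, Cd86 (-0.91, edgeR adjusted p = 0.0409), and the second series alone gave 0, with H2-Aa at -1.32 (edgeR adjusted p = 0.242). Leaving out the knockout library of mouse 4 without CCl4, which enters the shared fit but not the comparison, gave calls for H2-Aa, H2-Ab1 and Cd74 (edgeR adjusted p = 0.0201, 0.0491 and 0.0331), and leaving out control mouse 15 gave a call for Cd86 (-1.21, edgeR adjusted p = 0.0224). Leaving out knockout mice 13 and 14 after CCl4 together also gave a call for Cd86 (-0.85, edgeR adjusted p = 0.0322), with H2-Aa at -1.46.

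**Figure D2:**
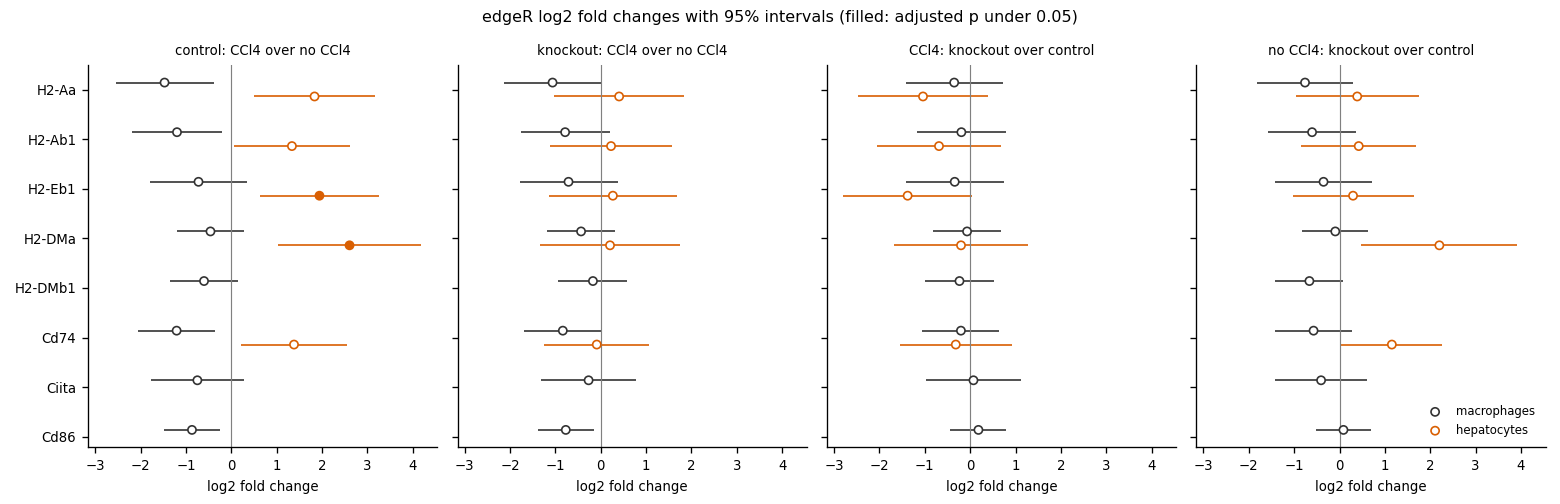
Log2 fold changes (horizontal axis) of the tested genes in 4 comparisons, with 95% intervals from the edgeR standard error. Dark circles are macrophages and orange circles hepatocytes, and filled circles passed an adjusted p under 0.05. In control mice all 8 macrophage values are below 0 and all 5 hepatocyte values above 0, and the only filled circles are H2-Eb1 and H2-DMa in hepatocytes.

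In knockout macrophages all 8 values were negative as well, with a median log2 fold change of -0.74 beside 0.02 for all genes. None of the 8 passed (edgeR, 1 at an unadjusted p under 0.05, as had 11.7% of all genes, and 0 by DESeq2 and limma voom), where 0.878% of all genes did. H2-Aa was at -1.06 (SE 0.548, edgeR adjusted p = 0.495) and Cd74 at -0.84 (SE 0.435, adjusted p = 0.495). Cd86 was the single gene whose libraries did not overlap, lower after CCl4, a pattern of 3.14% of all genes. The sizes rested on single libraries, H2-Aa being at -1.42 without knockout mouse 4 and at -0.59 without knockout mouse 21. Without mice 13 and 14, the libraries rich in hepatocyte transcripts, H2-Aa was at -0.66 and Cd74 at -0.44, while H2-DMa (0.13), H2-DMb1 (0.36) and Ciita (0.00) were no longer negative (edgeR adjusted p = 0.842 or higher for all 8).

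Genotype showed no called difference in the class II group of macrophages. Without CCl4, 0 of 8 genes passed for knockout over control (edgeR, 0 at an unadjusted p under 0.05), against 0.166% of all genes, and 7 of 8 log2 fold changes were negative. H2-Aa was at -0.76 (SE 0.543, 95% interval -1.82 to 0.30, edgeR adjusted p = 0.608, and -0.75 in the second file series alone), Ciita at -0.41 (SE 0.516, adjusted p = 0.803) and Cd86 at 0.09 (SE 0.307, adjusted p = 0.942). After CCl4, 0 of 8 passed (edgeR, 0 at an unadjusted p under 0.05), against 0.0647% of all genes, and H2-Aa was at -0.35 (95% interval -1.42 to 0.71, adjusted p = 0.894). Without mice 13 and 14 the 8 values were all positive, from 0.03 for H2-Eb1 to 0.65 for Cd86, and again 0 passed (edgeR adjusted p = 0.789 or higher). The response to CCl4 did not differ detectably between genotypes: the interaction was called for 0 of 8 genes (edgeR, 0 at an unadjusted p under 0.05), against 0.194% of all genes, and was 0.41 for H2-Aa (95% interval -1.09 to 1.91). These intervals are wide, and a missed threshold does not show equal levels. DESeq2 and limma voom called 0 of 8 in each of these 3 comparisons.

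The spread among knockout mice without CCl4 was wide for the class II genes and narrow for Cd86. H2-Aa in the highest of these 4 mice was 12.03 times its level in the lowest, H2-Eb1 10.4 times, H2-Ab1 8.85 times, Ciita 7.52 times and Cd74 5.53 times. For H2-DMa and H2-DMb1 the same ratio was 2.54 and 2.77, and for Cd86 it was 1.14. Among 8964 genes with a mean of at least 10 CPM in macrophages, 52 (0.58%) had a wider range in these 4 mice than H2-Aa, compared as CPM + 1, and 98.2% had a wider range than Cd86. In control mice without CCl4 the ratio was 1.66 for H2-Aa, and 68.7% of genes were wider. The 2 low mice, 4 and 5, and the 2 high mice, 20 and 21, belong to 1 group by every label used here. Kupffer cell markers summed to 20150 and 18900 CPM in mice 4 and 5 and to 18830 and 14020 CPM in mice 20 and 21, stellate cell markers to 789 and 903 CPM in mice 4 and 5 and to 2996 and 3797 CPM in mice 20 and 21, and hepatocyte markers to 9400 and 14810 CPM in mice 4 and 5 and to 4274 and 5769 CPM in mice 20 and 21. The part of these markers in the split was not tested. Leaving out mouse 4 moved the knockout over control value of H2-Aa to -0.40, and leaving out mouse 21 moved it to -1.23.

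Within a library the class II genes did not keep a fixed proportion. The ratio of H2-Eb1 to H2-Aa counts was 1.06 to 1.18 in knockout and 0.934 to 1.27 in control macrophages after CCl4, and 0.854 to 0.988 in knockout and 0.393 to 0.839 in control macrophages without it. In both genotypes each library after CCl4 lay above each library of that genotype without it. Control mice 6 and 7, at 0.393 and 0.536, had the lowest of the 16 ratios. The ratio of H2-DMa to H2-Aa counts was 0.155 to 0.187 in controls after CCl4 and 0.0755 to 0.0951 in controls without it. In knockout mice it overlapped, at 0.156 to 0.251 after CCl4 and 0.0908 to 0.550 without it. It was highest in knockout mouse 4, where H2-Aa was lowest. Of the other ratios to H2-Aa, that of H2-DMb1 was separated in controls only. Those of H2-Ab1, Cd74 and Ciita overlapped in both genotypes, H2-Ab1 in controls being at 0.778 to 0.959 after CCl4 and 0.624 to 0.810 without it. These ratios were chosen after the values were seen and were not tested.

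**Figure D3:**
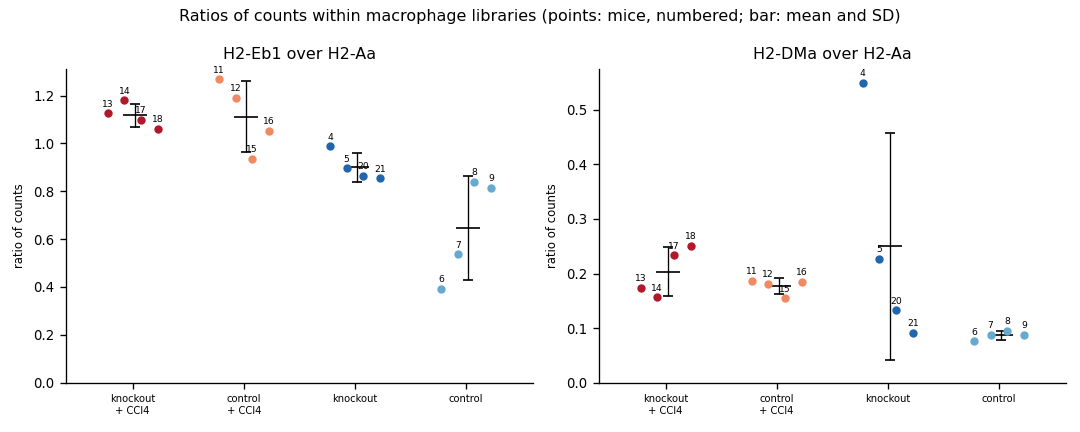
Ratio of the counts of H2-Eb1 (left) and H2-DMa (right) to those of H2-Aa in each macrophage library, on linear axes from 0. Points are mice with their numbers, and bars are the mean and SD of 4 mice. Libraries after CCl4 have H2-Eb1 ratios of 0.934 or more, and control libraries without CCl4 have H2-DMa ratios of 0.0951 or less.

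The genes whose levels were most like those of the class II genes over the 16 macrophage libraries were led by H2-D1, a class I heavy chain. Its Pearson r with the mean log2 level of the 6 class II genes was 0.898, and others of the highest were those of the deubiquitinase gene Usp38 (0.886), Cmtm3 (0.876), the interferon-inducible GTPase Irgm2 (0.861), the ubiquitin ligase gene Rnf114 (0.829), Tmem185b (0.828) and the phosphatase gene Ptpn2 (0.825). Ciita was at rank 32 (0.781) and Cd86 at rank 1105 (0.477). Taken as deviations from the 4 group means, Evi2a came first (0.879), followed by Usp38 (0.862), Irgm2 (0.861), Cmtm3 (0.857), Pnrc2 (0.852), H2-D1 (0.844), Cog3 (0.842) and the class I gene H2-M2 (0.841). Genes picked for this likeness would tend to share the split of the knockout mice, so their split is no separate result. Irgm2 had 14.4 and 22.5 CPM in mice 4 and 5 and 67.1 and 61.7 CPM in mice 20 and 21. H2-D1 had 825.5 and 1058 CPM in mice 4 and 5 and 1708 and 1631 CPM in mice 20 and 21. All 16 points share depth scaling and cell mixture, and these values are descriptions.

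Other genes of the pathway in macrophages were mostly not called with CCl4 in controls. Of the class II list, which adds H2-Eb2, H2-DMb2, H2-Oa, H2-Ob and H2-Ea-ps, 0 of 8 tested genes passed (edgeR, 3 at an unadjusted p under 0.05), and the median log2 fold change was -0.66. Of the factors of class II promoters, such as RFX and NF-Y subunits, 0 of 5 passed (1 at an unadjusted p under 0.05, median 0.19), and of the genes of peptide loading and turnover 0 of 6 (2 at an unadjusted p under 0.05, median -0.37). Among costimulatory and checkpoint ligands 0 of 7 passed (2 at an unadjusted p under 0.05, median 0.00). Beyond H2-Aa and Cd74, DESeq2 and limma voom called none of these 4 lists either. In the other 2 lists the share called was below the 13.2% of all genes called. Of 13 class I genes 1 rose, the chaperone calreticulin, Calr, with 1685 ± 303 CPM after CCl4 and 784 ± 89.4 CPM without it (log2 fold change 1.10, edgeR adjusted p = 0.00347). Of 8 interferon gamma genes 1 fell, the receptor chain Ifngr1, with 209 ± 24.2 CPM after CCl4 and 419 ± 22.5 CPM without it (log2 fold change -1.003, edgeR adjusted p = 0.00553). In the other 4 macrophage comparisons 0 genes of these 6 lists were called by edgeR or limma voom, with 0 to 4 of a list at an unadjusted p under 0.05, and DESeq2 called 1, the checkpoint ligand Cd274 with CCl4 in knockout mice.

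Some markers of other cells were called in the same control macrophages, in a comparison where 13.2% of all genes were called. A single called gene of a short list is therefore no result about that list. Of 11 tested Kupffer cell markers 4 fell with CCl4, among them Clec4f (-1.39, edgeR adjusted p = 0.0241) and Timd4 (-1.54, adjusted p = 0.0204), and the 12 markers summed to 6288 to 11190 CPM in controls after CCl4, where Folr2 was at 0, and 13570 to 17120 CPM in controls without it. Of 10 monocyte markers 7 rose, such as Ccr2 (2.82, adjusted p = 0.00202), with sums of 1041 to 1342 CPM after CCl4 and 660 to 1750 CPM without it. Dendritic cell markers summed to 122 to 147 CPM after CCl4 and 84.4 to 115 CPM without it, with Itgax higher (3.10, adjusted p = 0.00057) and Dpp4 lower (-1.92, adjusted p = 0.0179) of 4 tested. B cell markers summed to 57.4 to 91.4 CPM after CCl4 and 19.9 to 66.4 CPM without it, where Cd79a was at 0 in all 4 control libraries. The list shared by type 2 conventional and monocyte-derived dendritic cells had 3 tested markers, with a median log2 fold change of -0.50. Of these 1 rose, Tnip3 (1.61, edgeR adjusted p = 0.00399). The list summed to 133 to 194 CPM after CCl4 and 86.3 to 143 CPM without it. Of 5 tested markers of type 1 conventional dendritic cells 0 were called, with sums of 112 to 124 CPM after CCl4 and 135 to 172 CPM without it. Of 8 sinusoidal endothelial markers 2 fell, Gpr182 (-3.19, adjusted p = 0.0198) and Oit3 (-1.995, adjusted p = 0.0475), with sums of 207.5 to 1254 CPM after CCl4 and 1287 to 2007 CPM without it, which did not overlap. Hepatocyte markers did not overlap either, at 453 to 17110 CPM after CCl4 and 18040 to 21610 CPM without it, and 0 of 8 passed (edgeR, 3 at an unadjusted p under 0.05, 0 by DESeq2 and 2 by limma voom), with a median log2 fold change of -1.74. Of 5 neutrophil markers 1 rose, Mmp8 (2.88, edgeR adjusted p = 0.00404). Biliary epithelial markers summed to 232 to 434 CPM after CCl4 and 79.8 to 182 CPM without it, without overlap. Of 2 tested, edgeR and limma voom called 0 and DESeq2 1. The part of these markers in the class II values was not tested. Among knockout mice after CCl4, mice 17 and 18 had H2-Aa levels of 944.5 and 703 CPM at Kupffer sums of 16440 and 19620 CPM, in the range of mice without CCl4, while mice 13 and 14 had 413 and 428 CPM at sums below those of the controls after CCl4.

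**Figure D4:**
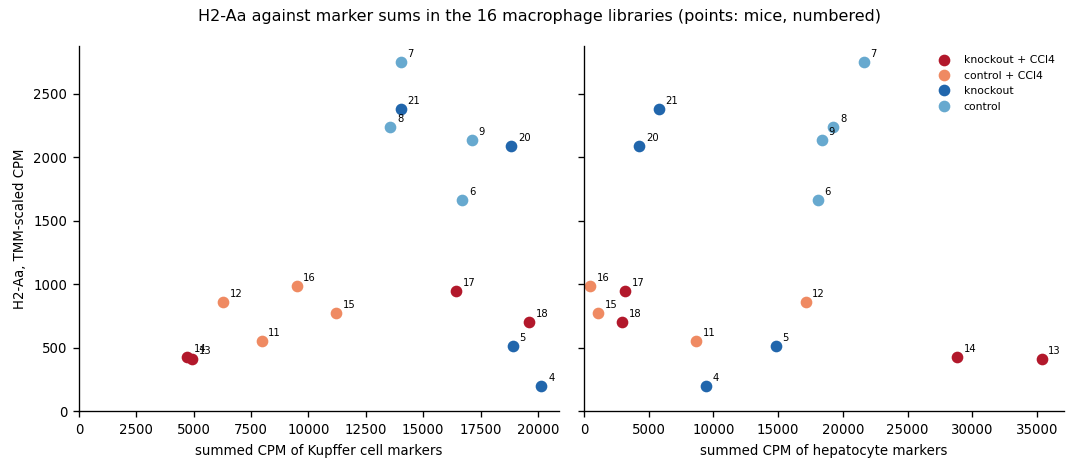
H2-Aa level (TMM-scaled CPM) against the summed CPM of 12 Kupffer cell markers (left) and 8 hepatocyte markers (right) in the 16 macrophage libraries. Points are mice with their numbers, coloured by group. Mice 4, 5, 17 and 18 combine Kupffer sums of 16440 CPM or more with H2-Aa levels of 944.5 CPM or less, and mice 13 and 14 have the highest hepatocyte sums.

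In hepatocyte libraries class II transcripts were present at low levels and were higher after CCl4 in control mice, with 2 of 5 tested genes called. H2-DMa had 6.10, 2.91 and 7.44 CPM in control mice 12, 15 and 16 after CCl4, and 0.346, 1.17, 1.02, 0, 0 and 6.37 CPM in control mice 2, 6, 7, 8, 9 and 19 without it. It rose by a log2 fold change of 2.61 (SE 0.809, edgeR adjusted p = 0.0173), on 71 counts in the 3 libraries and 14 in the 6. H2-Eb1 had 67.3, 23.1 and 52.1 CPM in the same mice after CCl4, and 2.60, 19.95, 10.04, 3.40, 4.51 and 52.0 CPM without it, and rose by 1.94 (SE 0.673, edgeR adjusted p = 0.0422). The groups overlapped for both genes only through control mouse 19, the other 5 libraries lying below all 3 after CCl4. H2-Aa (1.83, adjusted p = 0.0577), Cd74 (1.38, adjusted p = 0.0982) and H2-Ab1 (1.34, adjusted p = 0.145) did not pass. Cd74 ranged over 17.8 to 43.3 CPM after CCl4 and 1.27 to 36.1 CPM without it, and H2-Ab1 over 16.5 to 36.4 CPM and 2.55 to 42.4 CPM. The 2 calls of 5 stand beside 27.4% of all 9679 genes called, 13.7% upward. The median log2 fold change of the 5 was 1.83, beside -0.01 for all genes.

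**Figure D5:**
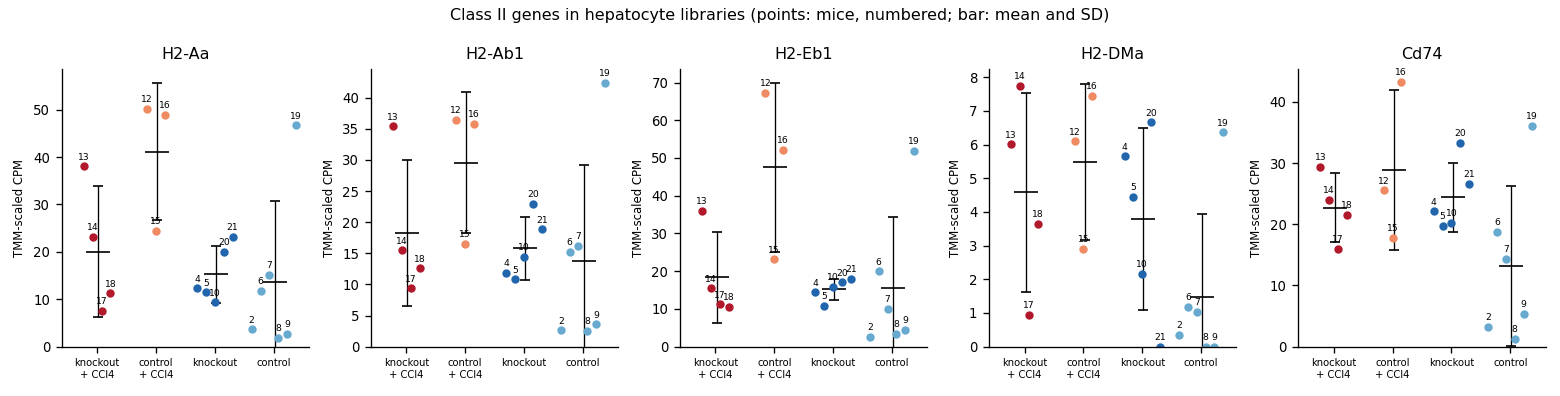
Level of the 5 tested genes in the 18 hepatocyte libraries, in TMM-scaled CPM on linear axes from 0. Points are mice with their numbers, and bars are the mean and SD of 4, 3, 5 and 6 mice from left to right. Control mouse 19 is the highest of the 6 controls without CCl4 for each gene.

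These hepatocyte calls depended on the fit, that of H2-Eb1 more than that of H2-DMa. Of 18 fits that each left out 1 library, edgeR called H2-DMa in 16 and H2-Eb1 in 5. Without control mouse 19 all 5 genes were called, H2-Aa at 2.61 (edgeR adjusted p = 0.00235), and without control mouse 12 or 16 after CCl4 none was. DESeq2 called the same count, 2, and limma voom all 5. A term for the file series gave 4 calls, with H2-Eb1 at 2.39 (adjusted p = 0.00822). The second series alone has 1 control library after CCl4, which is assumed to vary like the other groups, so its 0 calls say little of stability. H2-Eb1 was at 1.08 and H2-DMa at 1.63 there. Over all control libraries 27.4% of all genes were called with CCl4, 13.7% upward. Of 11 tested Kupffer cell markers 4 rose there, among them Vsig4 (2.35, edgeR adjusted p = 0.04). The 12 Kupffer cell markers summed to 269 to 305 CPM in controls after CCl4 and 67.7 to 282 CPM in controls without it. Mouse 19 was the highest of the latter, at 282 CPM. In control mouse 8, however, Clec4f and Vsig4 of this list were only at 0.822 and 0.658 CPM of the library total. Slc40a1, also of this list, averaged 120 CPM in knockout hepatocytes without CCl4. How far the sums measure Kupffer cell transcripts in hepatocyte libraries was not tested. Of the stellate cell markers Pdgfrb, Col1a1, Hgf and Col3a1 rose, 4 of 7 tested, with sums of 340.2 to 973 CPM after CCl4 and 12.95 to 344 CPM without it. Of 5 biliary epithelial markers 2 rose, Prom1 (3.62, adjusted p = 3.95e-05) and Sox9 (2.07, adjusted p = 0.000902), with sums of 90.2 to 249.5 CPM after CCl4 and 38.9 to 102 CPM without it, and of 2 monocyte markers Plac8 rose (1.71, adjusted p = 0.00317). The 5 B cell markers in the table summed to 0.763 to 2.13 CPM after CCl4 and to 3.18 CPM or less without it, with Cd79b and Ms4a1 at 0 in both groups. Their part in the class II values was not tested.

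Without CCl4, knockout hepatocytes of mice 4, 5, 10, 20 and 21 had 12.3, 11.5, 9.39, 19.99 and 23.1 CPM of H2-Aa, and control hepatocytes of 6 mice had a lowest value of 1.91, a median of 7.69 and a highest value of 46.7 CPM. For H2-Aa mice 4 and 5 were thus below mice 20 and 21 in hepatocytes too, on 24 and 18 against 27 and 27 counts. H2-Ab1, H2-Eb1 and Cd74 had the same order, and H2-DMa was mixed, with 0 in mouse 21. Ciita, which was not tested here, had only 0 and 1 counts in mice 4 and 5 and 2 and 3 counts in mice 20 and 21, too few to order them. H2-DMb1 had the opposite order, at 5.65 and 3.82 CPM in mice 4 and 5 and 0 in mice 20 and 21. So did Cd86, at 6.17 and 7.00 CPM against 2.22 and 1.71 CPM. Kupffer cell markers summed to 1230 and 647 CPM in mice 4 and 5 and to 290.2 and 165 CPM in mice 20 and 21. The groups overlapped for all 5 genes and 0 passed (edgeR, 1 at an unadjusted p under 0.05, as had 25.8% of all genes, and 0 by DESeq2), against 7.87% of all genes. The largest of these values was that of H2-DMa, 2.20 (SE 0.878, adjusted p = 0.113), and with the series term it was 1.31 (adjusted p = 0.532). Limma voom called Cd74 (2.27, adjusted p = 0.0172), and without control mouse 19 edgeR called H2-DMa (2.99, adjusted p = 0.0198) and Cd74 (1.69, adjusted p = 0.0448). In this comparison 7 of 11 Kupffer cell markers rose, with sums of 165 to 1230 CPM in knockout and 67.7 to 282 CPM in control hepatocytes. After CCl4, knockout over control, 0 of 5 passed (edgeR, 0 at an unadjusted p under 0.05), against 0.176% of all genes, and all 5 values were negative, H2-Eb1 at -1.38 (SE 0.728, adjusted p = 0.436). H2-Aa had 38.1, 23.2, 7.51 and 11.3 CPM in knockout mice 13, 14, 17 and 18, and 50.2, 24.4 and 48.9 CPM in control mice 12, 15 and 16. CCl4 in knockout mice gave 0 calls of 5 (edgeR, 0 at an unadjusted p under 0.05) against 13.9% of all genes, and the interaction gave 0 (edgeR, 1 at an unadjusted p under 0.05, as had 10.2% of all genes) against 0.217%, with H2-DMa at -2.40 (SE 1.14, adjusted p = 0.471). In these 3 comparisons DESeq2 and limma voom called 0 of 5.

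Set beside the macrophages of the same mouse, on CPM of the library total, hepatocyte H2-Aa stood at a median of 2.03% of the macrophage level over 15 mice (range 0.0747% to 10.2%). Cd74 stood at 2.47% and H2-DMa at 2.62%. Clec4f, which Kupffer cells express and hepatocytes should lack, stood at 1.34% (0% to 7.02%), and Vsig4 at 1.28%. In knockout mouse 4 both were high, at 6.89% for H2-Aa and 7.02% for Clec4f, while in knockout mouse 13 after CCl4 they were 10.2% and 1.23%. Ciita had 39 counts in the 3 control libraries after CCl4 and 14 in the 6 without it, of which 8 were in mouse 19. Cd86 had 27 and 10 counts in these groups, and Cd209a had 2 counts in all 18 hepatocyte libraries, both in mouse 12.

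In hepatocytes 0 of 4 class II promoter factors and 0 of 2 costimulatory ligands were called in any comparison (edgeR, at most 1 of a list at an unadjusted p under 0.05). DESeq2 called 0 of them and limma voom 1, the dendritic cell maturation marker Cd83 with CCl4 in controls. With CCl4 in controls the protease gene Lgmn, which encodes legumain, rose from the loading and turnover list, with 32.6 ± 17.2 CPM after CCl4 and 10.15 ± 6.76 CPM without it (1.84, edgeR adjusted p = 0.00714), and cathepsin L, Ctsl (-0.81, adjusted p = 0.00658), and the ubiquitin ligase gene March8 (-0.73, adjusted p = 0.00472) fell, 3 of 5 tested. Over all genes 27.4% were called with CCl4 in controls, 13.9% with CCl4 in knockout mice and 7.87% in knockout over control mice without CCl4, so the small counts that follow are no result about the lists. Of 13 class I genes 1 fell, B2m, the light chain of class I (-0.81, adjusted p = 0.0185). Of 7 interferon gamma genes 2 rose, Ifngr1 (1.52, adjusted p = 0.000119) and the transcription factor Irf8 (1.46, adjusted p = 0.0315). In knockout mice CCl4 was followed by lower B2m (-0.80), H2-K1 (-0.96) and the peptide loading factor Tapbp (-0.66), 3 of 13 class I genes (edgeR adjusted p = 0.025, 0.0226 and 0.0309), by lower Ctsl (-0.65, adjusted p = 0.0309) and by higher Ifngr1 (0.93, adjusted p = 0.0166). Lgmn was also higher in knockout over control hepatocytes without CCl4 (2.29, adjusted p = 0.00628), where Kupffer cell markers were higher too.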

How the data were processed

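Bulk RNA was sequenced as 3′ tags (QuantSeq FWD, per the labels' protocols) from 34 libraries of sorted macrophages and hepatocytes. The authors deposited raw counts per gene for each cell type. Trimmomatic 0.39, HISAT2 2.1.0 and the build GRCm38 (mm10) are named in the submitters' processing notes. For the counter, its annotation and strand, nothing is given in the sources used here.

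Groups came from the genotype and group labels, and the mouse numbers in the labels mark separate animals. Each cell type was fitted once over its 4 groups in R 4.3.3 with edgeR 4.0.16 (filterByExpr, TMM factors, robust quasi-likelihood test with the bias-adjusted dispersions), and p-values were adjusted over all tested genes by Benjamini-Hochberg. A gene was called at an adjusted p under 0.05. Approximate standard errors (SE) came from each F statistic, as log2 fold change divided by its root, and 95% intervals span 1.96 SE. limma 3.58.1 and DESeq2 1.42.0 served as alternatives, beside RLE factors, no filter, a term for the file series, the second series alone, other placings of the 2 libraries with conflicting labels, a fit of the compared groups and leaving out each library. The split of file numbers into 2 series was read from a gap between 14 and 25. The fits were tested on simulated counts, with 100 genes changed 2-fold and 100 changed 4-fold in each comparison. In macrophages 9% and 81% of these were called for CCl4 in controls, and 1% and 29% for the interaction. The other macrophage comparisons called 5% to 10% of the 2-fold changes. In hepatocytes 26% and 96% were called for CCl4 in controls, and 4% and 65% for the interaction. Of the calls, 1.1% to 5.48% were false. Counts were drawn around 1 mean level per gene, apart from the changes, with the same dispersion in each group. A spread as wide in 1 group as that of H2-Aa in knockout macrophages without CCl4 was not simulated. The rates may therefore not hold for such genes. Replicates differed by 5.76 to 48.6 times the counting noise (chi-square per degree of freedom), so none was a copy. The 3 counts taken as a floor, and any limit from them, cover counting error only.

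Genes were named by rule: the 10 genes, up to 4 called genes of each list with the lowest p, and the 8 genes with the highest Pearson r with the mean log2(CPM + 1) of H2-Aa, H2-Ab1, H2-Eb1, H2-DMa, H2-DMb1 and Cd74, of which 1 is not reported here. The members and lists were chosen with earlier results of these data known. Promoter letters were searched in 32851 RefSeq windows from 250 bases before to 50 after each start, of which 6 of the 10 genes had one.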

Additional observations from a re-analysis of the deposited data

Results flagged for a closer look

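Of 64 sets of values, each 1 gene in 1 group, 11 were flagged. In these the gap of a library to its nearest neighbour was large for the range of the group. For normally distributed values chance gives such a gap in about 1 in 20 sets. The rate for these CPM values, some from few counts, was not measured. Most of the 11 flagged sets concerned hepatocytes of control mouse 19 without CCl4. It had 46.68 CPM of H2-Aa, with the next mouse at 15.16, 42.44 CPM of H2-Ab1, with the next at 16.19, and 51.98 CPM of H2-Eb1, with the next at 19.95. It also had 6.365 CPM of H2-DMa, with the next at 1.174, 10.61 CPM of H2-DMb1, with the next at 1.174, and 8.487 CPM of Ciita, with the next at 0.5196. These 6 genes share 1 library, so they are not independent. Its Kupffer cell markers summed to 282 CPM, and those of the other 5 controls to at most 178 CPM.

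Hepatocytes of control mouse 6 had 3.521 CPM of Cd86, from 3 counts. In macrophages the values concerned were of few counts. Control mouse 8 without CCl4 had 2.204 CPM of Cd209a from 10 counts and 2.424 CPM of Flt3 from 11 counts, while the other 3 mice had none, and it was the deepest library of the group. Knockout mouse 21 had 5.849 CPM of Flt3 from 9 counts. Control mouse 15 after CCl4 had 0.0 CPM of Flt3, with the next mouse at 2.731.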

How the results depend on the processing

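No paired analysis was possible because the groups compared within a cell type hold different mice. In macrophages, CCl4 in controls called 0 of the 10 genes, against 3 without a filter and in a fit of the compared groups, 2 by DESeq2, 1 with a series term, 1 without mice 13 and 14 (a setting chosen after seeing the data) and 0 to 3 leaving out 1 library each. All 8 values stayed negative in each setting run. CCl4 in knockout mice called 0, against 1 without a filter, H2-Aa (-1.08, edgeR adjusted p = 0.00513). In hepatocytes, CCl4 in controls called 2, against 5 by limma voom, 4 with a series term, 1 without a filter, with the earlier quasi-dispersions (added after seeing the data) or in a fit of the compared groups, 0 in the second series, where 1 library is assumed to vary like the other groups, and 0 to 5 leaving out 1 library each. The knockout without CCl4 called 0, against 1 without a filter or by voom and 0 to 2 leaving out 1 library each. The cause was not tested where a call changed, and no value that was called changed sign. The other 6 comparisons called 0 of the genes in each setting run.

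Library totals set the limit for Cd209a and Flt3, and for H2-DMb1, Ciita and Cd86 in hepatocytes. All knockout libraries were in the second file series, so genotype and series cannot be fully told apart.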
